A study of Mus musculus with 6 samples.

Results

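Integrins are cell-surface receptors built from 1 α and 1 β chain, and a subset of them binds extracellular proteins through the tripeptide arginine-glycine-aspartate (RGD). The genes described here are the mouse subunits of that subset, the α chains Itga5, Itga8 and Itgav and the β chains Itgb1, Itgb3, Itgb5, Itgb6 and Itgb8. The rule takes rows by symbol and uses no measured value, but the set was chosen with earlier results of these data known. All 8 were found, with 1 row each, among the 19730 rows of an RNA-Seq table.

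The α5 chain pairs with β1 as a fibronectin receptor, and α8 pairs with β1 as the nephronectin receptor of the developing kidney. The αv chain pairs with β1, β3, β5, β6 or β8, and some of these pairs bind vitronectin, osteopontin or the latency peptide that keeps TGF-β inactive. Release of TGF-β from that peptide is best known for αvβ6, an epithelial integrin, and for αvβ8. In the glomerulus, mesangial cells hold the capillary loops together through integrins, and α8 is used as a marker of these cells.

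The RNA came from primary mesangial cells of mouse, used between passages 3 and 6. Both groups were kept in medium with 25.5 mM glucose and 20% foetal bovine serum, so the Control cells were also under high glucose. The 3 TGF-β1 libraries came from cells given transforming growth factor β1 at 10 ng/ml for 72 h, and the 3 Control libraries from cells without it. No strain, sex or age of the mice is given in the sources used here. The labels give the treatment and a replicate number, and the study's methods say only that samples of each group were taken in triplicate. The study speaks of biological replicates for its methylation assays, but nothing says whether the RNA libraries of a group were separate cultures, so the p-values measure only the spread between these samples, which may be technical.

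Levels are FPKM, fragments scaled to transcript length in kilobases and to mapped fragments in M (mega). Being per length, they allow genes to be set side by side, with 1 limit. Whether a row covers the gene or only the transcript named is not stated. The mm9 annotation lists 1 transcript for Itga5, 9 for Itgav and 5 each for Itgb1 and Itgb5. Shares and ratios between genes carry this limit. Depth, recovered from the steps between the lowest values, was 10.1 to 11.1 M fragments per library. Changes are given as log2, the TGF-β1 mean minus the Control mean of log2(FPKM + 1), a scale that understates the change of low genes. They were tested with limma over the 11898 rows whose mean reached 1 FPKM, and an adjusted p under 0.05 was called. A value after ± is the SD over the libraries of a group (n = 3).

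The label was set against marker genes. Of 7 mesangial markers, 4 were under 1 FPKM in every library, namely Itga8, Pdgfra, Des and Thy1. Pdgfrb, the PDGF receptor of pericytes and mesangial cells, had a mean of 37.5 FPKM in Control and 29.2 FPKM with TGF-β1, and Acta2, smooth muscle actin, 997 and 3887 FPKM. The 5 endothelial markers summed to at most 0.822 FPKM in any library. The podocyte marker Nphs1 was under 0.4 FPKM, while the 4 podocyte markers reported summed to 19.6 to 24.9 FPKM in Control and 12.5 to 13.7 FPKM with TGF-β1. Of the kidney epithelial markers, Cdh1 and Krt8 were near 0 but Cdh16 was listed at 130 FPKM in Control and 6.30 FPKM with TGF-β1, so that this list summed to 146 to 180 FPKM in Control and 7.82 to 9.40 FPKM with TGF-β1. Krt18, of the same list, had means of 0.279 and 1.57 FPKM. The macrophage list summed to 8.19 to 9.58 FPKM in Control and 2.26 to 3.24 FPKM with TGF-β1. Of this list, Csf1r went from a mean of 6.27 FPKM to 0.411 FPKM and was called lower. Cd68, with means of 2.79 and 2.22 FPKM, was not called. Itgam had means of 0.0250 and 0.120 FPKM, and Ptprc was at 0 in each Control library. The epithelial, podocyte and macrophage sums were thus lower with TGF-β1 and the endothelial sums overlapped, and the part of these cell types in the integrin results was not tested. In bulk RNA, fewer cells of a type and less RNA per cell cannot be told apart.

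The motif that these receptors read is shown first, as it is encoded in their ligands. In the coding sequences of the transcripts named in the table, 11 of the 12 ligand rows with a coding transcript held an in-frame RGD. Over all coding transcripts, 1126 of 15016 did (7.5%). The genes were listed as RGD ligands beforehand, so the first share follows from that choice and is no sign of enrichment. A match of codons does not show that a receptor binds the site. Each line gives the coding strand 5′ to 3′, with the 3 codons of RGD in capitals and 12 bases on each side. They are shown for the ligands with the largest changes and for 2 TGF-β precursors.
Fn1, the first of 2 sites: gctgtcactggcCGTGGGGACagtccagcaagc
Fn1, the second site: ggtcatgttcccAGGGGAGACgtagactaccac
Thbs1: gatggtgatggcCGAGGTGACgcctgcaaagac
Spp1: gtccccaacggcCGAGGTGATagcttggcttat
Npnt: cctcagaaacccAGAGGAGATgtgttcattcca
Tgfb1: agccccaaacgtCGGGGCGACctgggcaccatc
Tgfb3: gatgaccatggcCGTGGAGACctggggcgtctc

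In mm9 the codons lie at chr1:71653320-71653328 on the minus strand for the first Fn1 site (codon 1523, exon 29) and at chr1:71644017-71644025 for the second (codon 2090, exon 39). Those of Thbs1 lie at chr2:117948618-117948626 (plus strand, exon 18), of Spp1 at chr5:104868500-104868508 (plus strand, exon 6) and of Npnt at chr3:132567629-132567637 (minus strand, exon 8). Those of the TGF-β precursors lie in exon 5 of each, at chr7:26482161-26482169 on the plus strand for Tgfb1 and at chr12:87403115-87403123 on the minus strand for Tgfb3. No 2 of the printed sites have the same 9 bases in capitals, though some share codons. The Tnc transcript held no in-frame RGD, and the Vtn row names a non-coding transcript that was not searched.

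TGF-β1 was accompanied by higher mRNA of the α5 and β1 chains and of β3, a small rise of β5, and near-loss of the already scarce β6 mRNA. Of the 8 subunits, 5 passed the filter on low values. Of these 5, Itga5, Itgb1, Itgb3 and Itgb5 were called higher and none lower, where 24.5% of all tested rows were called higher, 23.6% lower and 48.1% in either direction. After rescaling to protein-coding rows 16.8% of rows were called higher, and 33.6% of all calls were in that direction in place of 50.9%, and 3 of the 5 subunits were called higher, Itgb5 no longer among them. Itgav was not called, and all 5 log2 differences were above 0. The remaining 3, Itga8, Itgb6 and Itgb8, were under the filter. The median log2 change of the 5 was 1.88, against -0.017 over all tested rows. Itga5, Itgb1 and Itgb3 were each called and at least 1 higher on the log2 scale, as were 6.56% of tested rows.

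**Figure D1:**
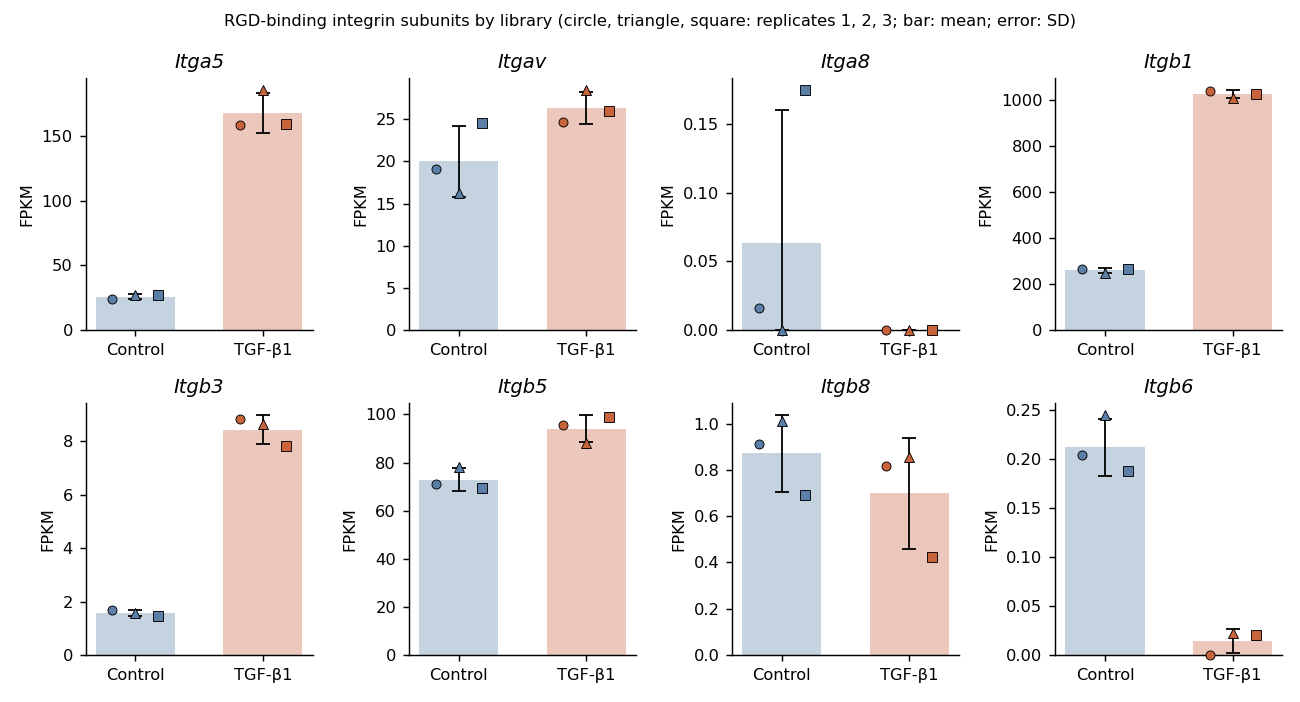
FPKM of each subunit (y axis, linear, a separate range for each gene) in the Control and TGF-β1 groups (x axis). Points are libraries, bars are means and error lines are SD with n = 3. Itga5, Itgb1 and Itgb3 stand far apart between groups, Itgav nearly touches at 24.6 and 24.7 FPKM, and Itga8 and Itgb6 lie under 0.25 FPKM.

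Among the α chains, Itga5 (ENSMUSG00000000555, mm9 chr15:103174720-103197194, minus strand) encodes the partner of β1 in the classical fibronectin receptor. Its level was 23.7, 27.0 and 27.0 FPKM in Control replicates 1 to 3 and 159, 186 and 159 FPKM in TGF-β1 replicates 1 to 3. The lowest treated library was thus several times the highest Control library. The mean went from 25.9 ± 1.90 to 168 ± 15.3 FPKM, 6.49-fold. The log2 change of 2.65 (SE 0.0987, 95% interval 2.41 to 2.89) had a limma adjusted p of 1.47e-05. Only 0.824% of tested rows rose more, and in the order of all 19730 rows by mean level Itga5 stood above 82.3% in Control and above 96.7% with TGF-β1. By the distance between centred log2(FPKM + 1) values over the 6 libraries, the tested rows most like Itga5 were Spsb1 (0.229), Bgn (0.236) and Fam38b (0.245).

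Itgav (ENSMUSG00000027087, chr2:83564554-83647073, plus strand) encodes the α chain shared by the vitronectin-binding and TGF-β-activating integrins. Its level was 19.1, 16.2 and 24.6 FPKM in Control and 24.7, 28.4 and 26.04 FPKM with TGF-β1. The groups did not overlap but nearly touched, and 59.4% of tested rows had groups that did not overlap (29.9% higher and 29.5% lower). The means were 20.0 ± 4.26 and 26.4 ± 1.91 FPKM. The log2 difference of 0.40 (95% interval 0.027 to 0.77) had a limma adjusted p of 0.0746. Without Control replicate 3 it was 0.55 with an adjusted p of 0.0120, so that 1 library decides this call. The gene overlaps the lincRNA Gm13684 and the pseudogene Dnmt3l-ps1 on the opposite strand, and use of strand in the FPKM estimate is not stated.

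Itga8 (ENSMUSG00000026768, chr2:12028259-12223547, minus strand) encodes the α chain of the nephronectin receptor and is the mesangial marker of the family. It was listed at 0.0161, 0 and 0.174 FPKM in Control and at 0 in each TGF-β1 library. The Control values correspond to about 1.0, 0 and 10.5 fragments, so nearly all of the signal lies in Control replicate 3. A listed 0 allows up to 3 fragments, or 0.0483 to 0.0529 FPKM depending on the library, counting error only. No fold is given, and without the filter the limma adjusted p was 0.424. These cells therefore held next to no mRNA of the α8 chain in either group at this depth. The gene overlaps the lincRNA E030013I19Rik on the opposite strand.

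The make-up of the α chains followed from these levels. Itga5 made up 56.6 ± 5.31% of the summed FPKM of Itga5, Itga8 and Itgav in Control and 86.4 ± 0.400% with TGF-β1. Itgav accounted for nearly all of the rest. The shares did not overlap between groups (exact permutation test over libraries, two-sided, p = 0.1, the smallest that 3 against 3 allows, Benjamini-Hochberg p = 0.125 over the 5 shares and ratios compared). Per FPKM of Itgav there were 1.33 ± 0.296 of Itga5 in Control and 6.37 ± 0.214 with TGF-β1. In Control the ranges of Itga5 and Itgav overlapped between libraries. Within each Control library Itga5 was the higher, at 1.24, 1.66 and 1.09 FPKM per FPKM of Itgav in replicates 1 to 3. The within-library log2 ratio of Itga5 to Itga8, both with 1 added, rose by 2.74 (exact permutation p = 0.1), a value set by Itga5 and the added 1.

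Itgb1 (ENSMUSG00000025809, chr8:131209554-131257100, plus strand) encodes the β chain common to α5, α8 and many collagen and laminin receptors. Its level was 263, 248 and 266 FPKM in Control and 1041, 1009 and 1028 FPKM with TGF-β1. Libraries of a group lay within a few percent of their mean, and the groups were far apart. The mean went from 259 ± 9.96 to 1026 ± 16.4 FPKM, 3.96-fold, and the log2 change was 1.98 (SE 0.0786, 95% interval 1.79 to 2.17, limma adjusted p 1.82e-05). In Control it already stood above 98.1% of all rows, and with TGF-β1 above 99.3%. Itgb1 was the most abundant of the 8 in every library, with 10.1 ± 0.989 FPKM per FPKM of Itga5 in Control and 6.14 ± 0.621 with TGF-β1. The 2 ranges did not overlap.

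Itgb3 (ENSMUSG00000020689, chr11:104469370-104531790, plus strand) encodes the β chain of the vitronectin receptor αvβ3 and, with αIIb, of the platelet fibrinogen receptor. Its level was 1.68, 1.55 and 1.48 FPKM in Control and 8.84, 8.65 and 7.83 FPKM with TGF-β1. This corresponds to about 88.0 to 103 fragments per Control library and 469 to 536 per TGF-β1 library, and the groups were far apart. The mean went from 1.57 ± 0.105 to 8.44 ± 0.534 FPKM, 5.37-fold, and the log2 change was 1.88 (SE 0.0941, 95% interval 1.65 to 2.10) with an adjusted p of 3.78e-05 by limma. With 0.1 in place of 1 added before taking the logarithm the change was 2.35. Itga2b, the αIIb chain that pairs only with β3 and is a platelet gene, had means of 4.05 ± 1.49 and 1.35 ± 0.979 FPKM and was not called (adjusted p 0.0514), although it was in 3 of 17 alternatives (adjusted p 0.0314 at the lowest), among them without Control replicate 2 and without TGF-β1 replicate 3. The 3 platelet markers found, Itga2b among them, summed to 4.18 to 7.31 FPKM in Control and 0.824 to 2.78 FPKM with TGF-β1. The sums were thus lower in the group where Itgb3 was higher. Without the filter, Gp1ba was not called (limma adjusted p 0.266) and Pf4 was called lower, from a mean of 0.931 FPKM to 0. The part of these markers in the Itgb3 result was not tested.

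Itgb5 (ENSMUSG00000022817, chr16:33829751-33949239, plus strand) encodes the β chain of αvβ5, another vitronectin receptor. Its level was 71.1, 78.2 and 69.5 FPKM in Control and 95.5, 88.1 and 98.8 FPKM with TGF-β1. The groups did not overlap, and the highest Control and the lowest treated library were both replicate 2. The mean went from 72.9 ± 4.68 to 94.1 ± 5.47 FPKM, 1.29-fold. The log2 change of 0.36 (SE 0.0848) had a 95% interval of 0.16 to 0.57 and, with limma, an adjusted p of 0.0137. A total of 25.8% of tested rows rose more. The call was lost in 5 of 18 alternatives, among them the library rescaling to the sum of protein-coding rows, where the change was 0.17 (adjusted p 0.162) and the median of all rows moved to -0.19. It was also lost without TGF-β1 replicate 1 (adjusted p 0.0566) and without TGF-β1 replicate 3 (0.0539).

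**Figure D2:**
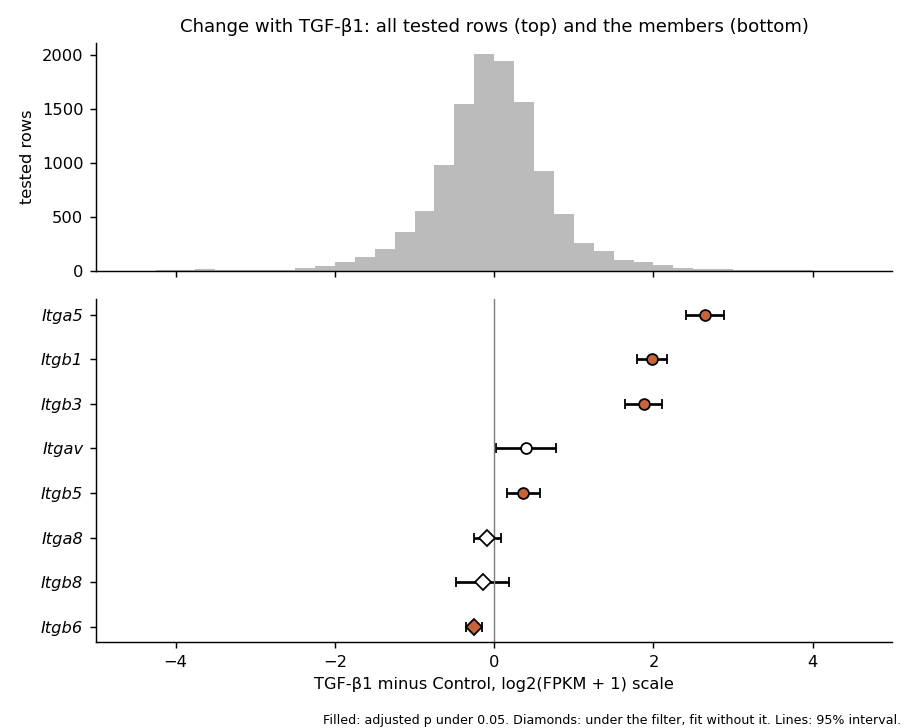
Top, number of tested rows (y axis) by change with TGF-β1 on the log2(FPKM + 1) scale (x axis). Bottom, the change of each subunit on the same x axis with its 95% interval, filled where the adjusted p was under 0.05 and drawn as a diamond where the subunit was under the filter. Itga5 at 2.65, Itgb1 at 1.98 and Itgb3 at 1.88 lie in the upper tail of the rows, and the others lie between -0.26 and 0.40.

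The remaining β chains were scarce. Itgb8 (ENSMUSG00000025321, chr12:120396495-120477275, minus strand) encodes the β chain of αvβ8, which presents latent TGF-β for activation. Its level was 0.912, 1.01 and 0.690 FPKM in Control and 0.819, 0.856 and 0.423 FPKM with TGF-β1. The groups overlapped, and replicate 3 was the lowest library of each. Without the filter, the log2 difference of -0.15 (95% interval -0.48 to 0.19) had a limma adjusted p of 0.476, and under quantile normalization its sign was reversed.

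Itgb6 (ENSMUSG00000026971, chr2:60436349-60560700, minus strand) encodes the β chain of αvβ6, the epithelial activator of latent TGF-β. It was listed at 0.203, 0.244 and 0.188 FPKM in Control and at 0, 0.0222 and 0.0207 FPKM with TGF-β1. This is about 9.31 to 12.4 fragments per Control library and 0 to 1.03 per TGF-β1 library, and the groups did not overlap, as in 44.1% of all rows (20.5% higher and 23.6% lower). Summed over libraries and set per mapped fragment, the ratio of TGF-β1 to Control was 0.0665, with an exact 95% interval of 0.00771 to 0.261 that covers counting error only. In the fit without the filter, where 30.5% of rows were called, 14.6% higher and 16.0% lower, Itgb6 was called lower by limma at an adjusted p of 0.0053, with -0.26 on the log2 scale (SE 0.0402). With 0.1 added in place of 1 the change was -1.45, which shows how far the scale compresses so low a gene. The epithelial genes Cdh16 and Cldn2 fell with it, with log2 changes of -4.16 and -4.41, Krt18 of the same list rose without the filter (log2 change 1.01, limma adjusted p 0.00143), and Cdh1 was at or under 0.123 FPKM in every library. The part of epithelial RNA in the Itgb6 result was not tested. The tested rows whose centred values were nearest to those of Itgb6 were Pias3 (distance 0.0375), Cpsf7 (0.0538) and Tbc1d9b (0.0706), rows of higher level. The distance was taken on the log2(FPKM + 1) scale, where Itgb6 moved by only -0.26. It therefore does not show that these rows fell to a ratio like the 0.0665 of Itgb6.

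Among the β chains, Itgb1 made up 77.4 ± 1.81% of the summed FPKM in Control and 90.9 ± 0.303% with TGF-β1, with no overlap (exact permutation test, two-sided, p = 0.1, Benjamini-Hochberg p = 0.125). The share of Itgb5 went from 21.8 ± 1.75% to 8.33 ± 0.368% although its own level rose. Of the β chains that pair with αv other than β1, Itgb5 still held 96.5 ± 0.260% in Control and 91.1 ± 1.04% with TGF-β1. Within these, Itgb3 went from 2.08 ± 0.183% to 8.19 ± 0.793%. Per FPKM of Itgb3 there were 46.5 ± 4.11 FPKM of Itgb5 in Control and 11.2 ± 1.26 with TGF-β1. The within-library log2 ratio of Itgb3 to Itgb5, both with 1 added, went from -4.84 ± 0.105 to -3.33 ± 0.149, a difference of 1.51 (exact permutation test, two-sided, p = 0.1). Itgb5 was present at 3.78 ± 1.0 FPKM per FPKM of Itgav in Control and at 3.59 ± 0.425 with TGF-β1, and these values overlapped. The log2 ratio of Itgb8 to Itgav, again with 1 added to both, was -3.47 ± 0.417 and -4.02 ± 0.216 and also overlapped (exact permutation p = 0.2), at a level set largely by the 1 added to Itgb8.

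**Figure D3:**
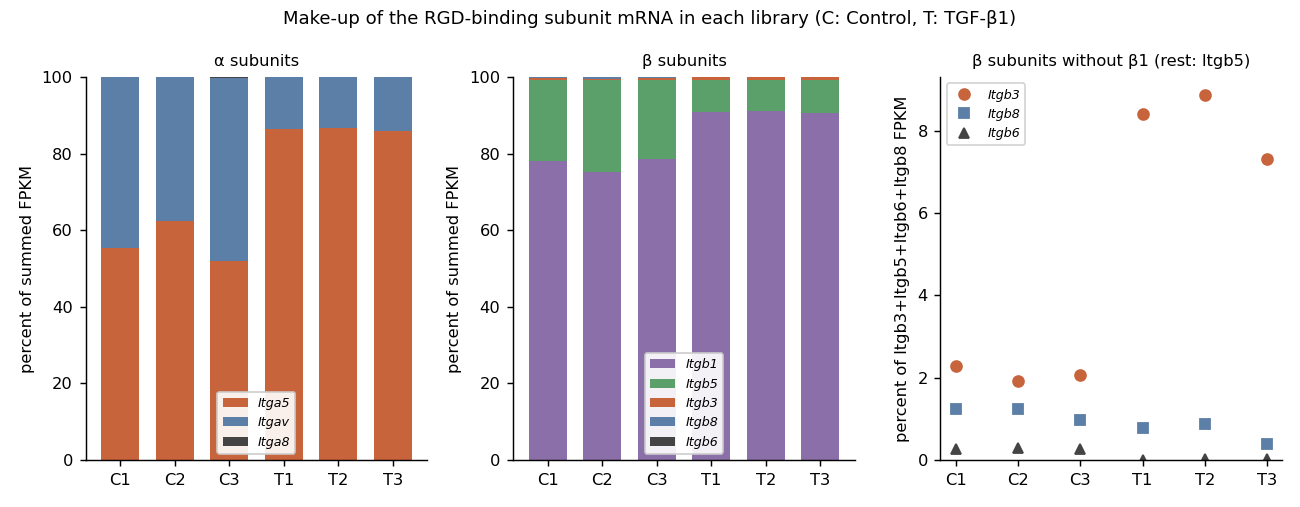
Left and middle, percent of the summed FPKM (y axis) that each α or β chain held in each library (x axis, C1 to C3 Control and T1 to T3 TGF-β1). Right, percent held by Itgb3, Itgb6 and Itgb8 when Itgb1 is left out, with Itgb5 as the rest. Itga5 reaches 86.4% of the α chains and Itgb1 90.9% of the β chains on average with TGF-β1, and Itgb3 rises from 2.08% to 8.19% in the right panel.

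The order of levels in Control was Itgb1, Itgb5, Itga5 and Itgav (whose ranges overlapped), Itgb3, Itgb8, Itgb6 and Itga8. With TGF-β1, Itga5 moved above Itgb5, and Itgb6 and Itga8 could not be ordered, since both had libraries at 0. The 8 subunits together summed to 380 ± 8.86 FPKM in Control and 1324 ± 5.30 FPKM with TGF-β1.

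Promoters are shown for Itga5 and Itgb1, the subunits of the pair that rose together. They are from RefSeq (GRCm38.p6, another build than the mm9 of the table), run from 250 bases before to 50 bases after the annotated start, and carry the searched letters in capitals. Promoters of 7 of the 8 subunits were matched, and Itgb3 was not in that table.
Itga5: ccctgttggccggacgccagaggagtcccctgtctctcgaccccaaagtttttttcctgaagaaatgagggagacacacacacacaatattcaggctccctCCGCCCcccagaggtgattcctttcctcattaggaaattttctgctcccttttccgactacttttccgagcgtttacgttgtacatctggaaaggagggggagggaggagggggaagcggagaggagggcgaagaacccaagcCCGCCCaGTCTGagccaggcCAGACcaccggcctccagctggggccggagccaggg
Itgb1: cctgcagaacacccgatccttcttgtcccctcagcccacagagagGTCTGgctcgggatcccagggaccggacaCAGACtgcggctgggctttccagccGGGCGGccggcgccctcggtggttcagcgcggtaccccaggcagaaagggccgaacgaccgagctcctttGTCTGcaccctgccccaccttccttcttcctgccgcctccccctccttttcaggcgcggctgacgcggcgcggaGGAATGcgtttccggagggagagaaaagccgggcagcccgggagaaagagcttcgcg

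The Itga5 window is chr15:103366742-103367041 on the minus strand and the Itgb1 window chr8:128685404-128685703 on the plus strand, both GRCm38. Searched on both strands were CAGAC, a SMAD-binding element, GGGCGG, the GC box, GGAATG, bound by TEAD factors, TGANTCA, bound by AP-1, and the CArG box of serum response factor. CAGAC occurred in 49.6% of all 32851 promoters of this length, GGGCGG in 35.7%, GGAATG in 14.7%, TGANTCA in 7.81% and the CArG box in 1.63%. Itga5 held 2 CAGAC and 2 GGGCGG matches, and Itgb1 held 3 CAGAC, 1 GGGCGG and 1 GGAATG. Itgb5, which rose little, held 3 GGGCGG matches, Itgav 1 and Itga8 none of the 5 motifs. Itgb8 held 1 CAGAC, and of the 2 annotated promoters of Itgb6 the first held CAGAC and the second a CArG box. TGANTCA was in none of these windows, and in the printed windows no match overlapped another. These are matches of letters and not measured binding.

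The ligands of these receptors moved in both directions. Of 16 listed RGD ligands, 13 had a row and 11 were tested. Of these, 7 were called higher, 3 lower and 1 not called, where 24.5% of all tested rows were called higher and 23.6% lower. The median log2 change of the 11 was 1.07. Tnc, whose transcript held no in-frame RGD, is counted among the 7 (log2 change 1.07). So is Edil3, with means of 0.641 FPKM in Control and 3.52 FPKM with TGF-β1, which passed the filter only through its TGF-β1 libraries. Thbs1, thrombospondin, went from 18.2 ± 0.343 to 221 ± 15.2 FPKM, a log2 change of 3.53 at a limma adjusted p of 3.26e-06. Fn1, the fibronectin bound by α5β1, was listed at 343, 356 and 459 FPKM in Control and at 3157, 3222 and 3021 FPKM with TGF-β1 (log2 change 3.03, limma adjusted p 2.55e-05), so the receptor pair Itga5 and Itgb1 and its ligand were all higher. Npnt, the nephronectin bound by α8β1, fell from 36.8 ± 1.22 to 4.13 ± 0.310 FPKM (-2.88 on the log2 scale, adjusted p 6.39e-06 by limma), with its receptor chain Itga8 near 0 in both groups. Spp1, the osteopontin bound by αvβ3 and α5β1, was chosen after its values were seen for its level. It fell from 5438 ± 339 to 1715 ± 113 FPKM (log2 change -1.66). The Vtn row, vitronectin, was at or under 0.366 FPKM in every library and was not called, but names a retained-intron transcript and so may not stand for the gene.

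Most other integrin subunits were low. Of 18 listed genes 16 had a row, 8 of them under 1 FPKM in every library, and 6 were tested, with 2 called higher, 1 lower and 3 not called (median log2 change -0.12), a share of calls near the 48.1% of all tested rows. Itga7, a laminin-binding α chain of muscle, went from 1.002 ± 0.331 to 5.98 ± 0.391 FPKM (log2 change 1.81), and Itga1, a collagen-binding α chain, from 6.55 ± 0.626 to 1.44 ± 0.321 FPKM (log2 change -1.64). Itga6, a laminin-binding α chain, went from 162 ± 26.2 to 227 ± 23.2 FPKM (log2 change 0.48), but its row names a processed transcript, and the call was lost in 7 of 18 alternatives. Without the filter 6 of these 16 genes were called, where 30.5% of all rows were. Without Control replicate 2 the count among tested genes was 5, where 4683 of 11844 tested rows were called.

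The adhesion complex gathers at the tail of the β chain and holds links to actin, adaptors and kinases. Of its 26 listed genes 24 were tested, with 14 called higher, 4 lower and 6 not called (median log2 change 0.56), where 24.5% of all tested rows were called higher and 23.6% lower. Over the alternatives 15 to 20 of these genes were called. Actn1, the actin crosslinker α-actinin, went from 85.5 ± 3.22 to 310 ± 10.99 FPKM (1.84 on the log2 scale, adjusted p 1.82e-05 by limma). Parvb, β-parvin of the complex with integrin-linked kinase, went from 15.7 ± 2.45 to 46.2 ± 8.11 FPKM (1.5), and Flna, filamin, from 253 ± 15.0 to 674 ± 33.3 FPKM (1.41), on a row that names a transcript marked for decay. Both changes were called.

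Genes listed for the latent TGF-β complex were also read, namely TGF-β ligands, latent TGF-β binding proteins and proteins that tether the complex. Of 9 genes 8 were tested, with 5 called higher, 1 lower and 2 not called (median log2 change 0.85), against the same 24.5% and 23.6% of all tested rows. Tgfb1 and Tgfb3 are also among the RGD ligands, so their higher calls are counted in both lists. Tgfb3, whose latency peptide carries the RGD shown above, went from 19.4 ± 1.34 to 63.0 ± 2.56 FPKM (log2 change 1.65). Ltbp2, of the latent TGF-β binding protein family, went from 0.658 ± 0.308 to 3.28 ± 0.679 FPKM (1.37), and Lrrc32, the protein GARP that tethers latent TGF-β to the cell surface, from 22.9 ± 1.40 to 58.8 ± 2.77 FPKM (1.32). Tgfb3, Ltbp2 and Lrrc32 were called higher, whereas the β6 and β8 chains, which pair with αv, stayed at or under 1.01 FPKM in every library.

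**Figure D4:**
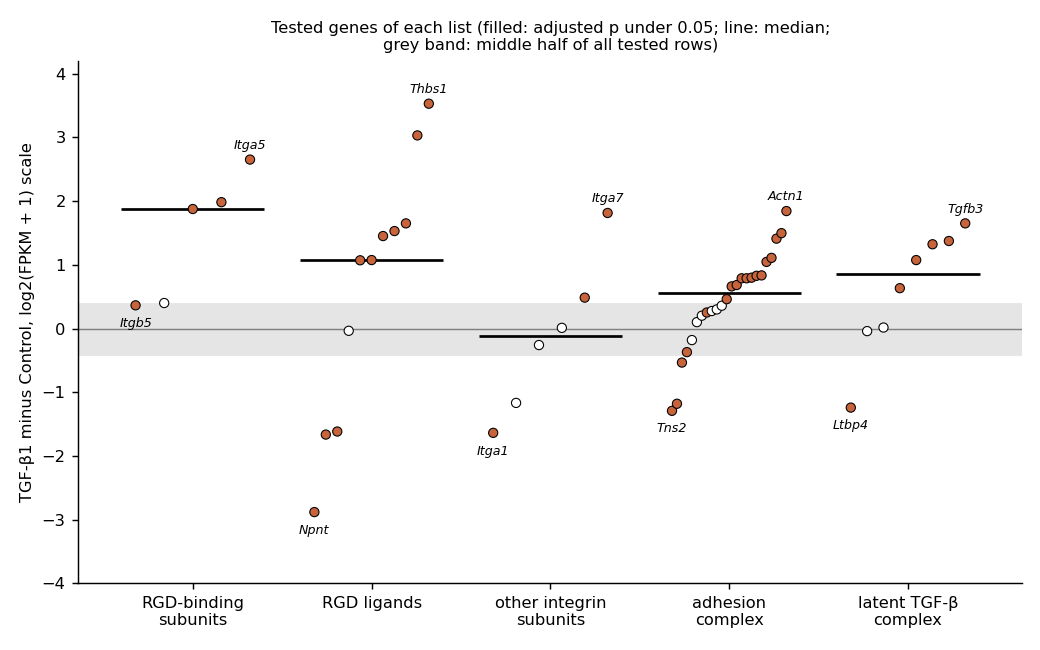
Change with TGF-β1 on the log2(FPKM + 1) scale (y axis) of every tested gene of 5 lists (x axis). Points are genes, filled where the adjusted p was under 0.05, the line is the list's median and the grey band holds the middle 50% of all tested rows. The RGD-binding subunits have a median of 1.88, the RGD ligands 1.07 and the other integrin subunits -0.12, and the 2 outermost genes of each list are named. Tgfb1 and Tgfb3 are drawn both as RGD ligands and in the latent TGF-β complex.

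The changes of the 5 tested subunits were followed through every alternative. Itga5, Itgb1 and Itgb3 kept their call in all 18, with log2 changes of 2.46 to 2.69, 1.79 to 2.02 and 1.73 to 2.35. With the replicate 2 libraries left out in both groups, these 3 changes were 2.61, 1.96 and 1.85. Itgav and Itgb5 ranged from 0.21 to 0.55 and from 0.17 to 0.46.

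**Figure D5:**
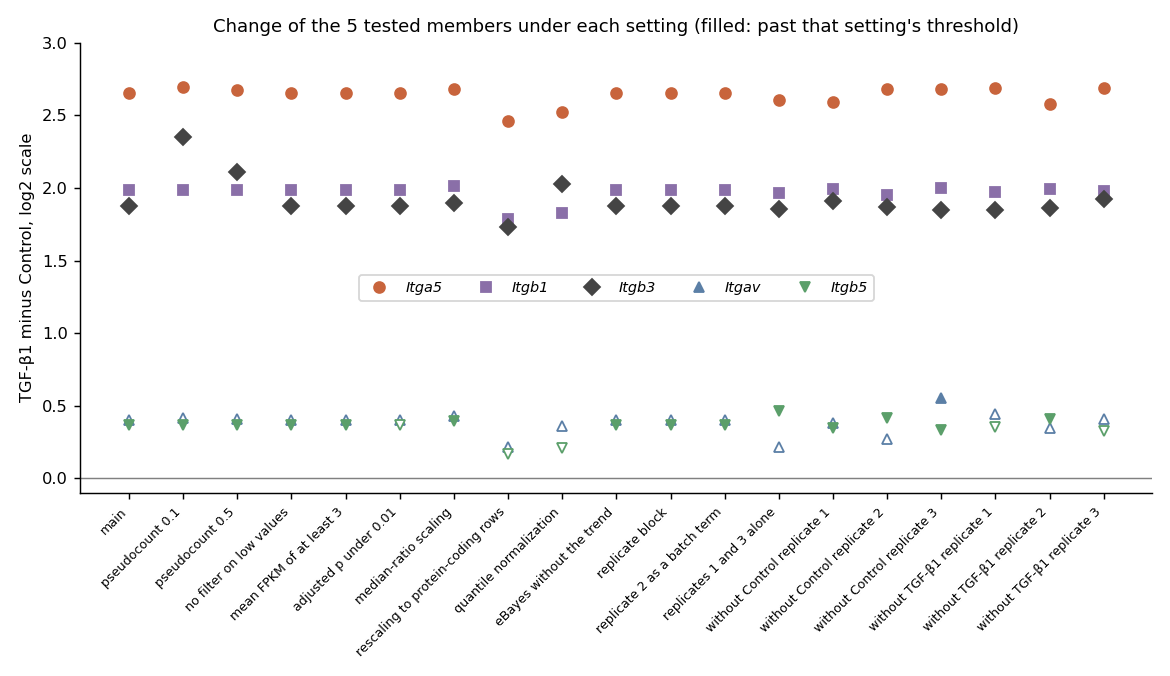
Change with TGF-β1 on the log2 scale (y axis) of the 5 tested subunits under the main setting and 18 alternatives (x axis), filled where the adjusted p passed that setting's threshold. Itga5, Itgb1 and Itgb3 stay above 1.7 and filled in all, whereas Itgav is filled only without Control replicate 3 and Itgb5 is open in 5 settings.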

How the data were processed

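RNA-Seq was analysed in 6 libraries of mouse mesangial cells, grouped and numbered by their labels. Reads that passed the authors' quality filter were aligned to the mm9 genome by TopHat, Cufflinks gave the FPKM estimates, and the deposited values are FPKM with 1 column per library and no stated scaling between libraries. The submitters' processing notes name TopHat2 2.0.11. The authors' own test was a count model, and counts were not used here. Whether a row holds the value of a gene or only of the transcript named is not stated.

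The subunits and gene lists were chosen with earlier results of these data known. Rows whose mean reached 1 FPKM entered the model as log2(FPKM + 1), fitted with limma 3.58.1 under R 4.3.3 using eBayes and its trend option. Tests were two-sided, and p-values were adjusted by Benjamini-Hochberg over every row tested. Itga8, Itgb6 and Itgb8 did not pass and come from the same fit without the filter. Shares and ratios were compared with exact permutation tests over libraries (scipy 1.17.1). Other software was Python 3.11.15, numpy 2.4.6, pandas 2.3.3 and matplotlib 3.10.9.

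Depth came from FPKM under 0.6, of which 99.5 to 99.8% were whole multiples of 1 fragment (tolerance 0.1) against 21.8 to 25.9% after jittering, with an assumed fragment length of 200 nt. Fragment numbers are therefore approximate, and no count model was run. Coordinates and overlaps are from the mm9 annotation (GENCODE M1). Named genes were all 8 subunits, the 3 called genes with the largest change in each list, Fn1, Vtn and Itga2b, and the 3 rows nearest to Itga5 and to Itgb6, with the exceptions said in the text. Alternatives covered the pseudocount, the filter, the threshold, 3 scalings, the trend, the replicate number, the replicate 2 libraries and leaving out each library. The replicate 2 libraries of both groups correlated at 0.232 in their deviations from the group means. An item of the marker lists is not reported here.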

Additional observations from a re-analysis of the deposited data

How the results depend on the processing

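Itga5, Itgb1 and Itgb3 were called higher under all 18 alternatives. Itgb5 was not called at an adjusted p under 0.01, after rescaling to protein-coding rows, under quantile normalization, or without TGF-β1 replicate 1 or 3 (adjusted p 0.0566 and 0.0539). Over all alternatives its adjusted p ranged from 0.0098 to 0.162 and that of Itgav from 0.0120 to 0.320. Itgb6 was called lower in all 16 alternatives without the filter (adjusted p 0.00465 to 0.0482). The difference of Itgb8 was reversed under quantile normalization, at 0.049 with an adjusted p of 0.832. With no filter 1 subunit, Itgb6, was called lower, where 16.0% of all rows were. In that setting 6 of 16 other integrin subunits were called in either direction, where 30.5% of all rows were. The number of changed rows was 5721, and 3672 at the stricter threshold. The log2 ratio of Itga5 to Itga8 rose by 3.25 with a pseudocount of 0.1, and that of Itgb3 to Itgb5 by 1.98 with 0.1 and 1.74 with 0.5. Rescaling to protein-coding rows gave 2003 rows called higher and 3951 lower, against 2911 and 2810.

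Leaving out each library in turn gave 4451 to 5422 changed rows, 3 to 5 subunits called higher and 2 to 5 other integrin subunits called, the 5 being without Control replicate 2. Of all tested rows 19.0 to 23.9% were then called higher. Same-numbered libraries correlated at 0.092, 0.232 and 0.085 in their deviations from the group means. Differently numbered libraries correlated at -0.194 to 0.117. Whether the numbers pair the samples is not resolved by these values. With the replicate block 5391 rows were called, and no call of a tested subunit changed. Itga8 and Itgb6 rest on at most 12.4 fragments per library, which limits both.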
